A study of Mus musculus with 11 samples.

Results

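The genes described here are 10 secreted cytokines and chemokines that fibroblasts can make: Il6, Lif, Csf1 and Il33 among the cytokines, Cxcl1, Cxcl5 and Cxcl12 among the CXC chemokines, and Ccl2, Ccl7 and Ccl5 among the CC chemokines. They were taken by name from 19938 genes with an expression value, and each was represented by 1 probe set on the array. Levels were read on all 11 arrays. The cells were male mouse embryonic fibroblasts (MEFs) of 13.5 dpc F1 hybrid embryos, and all groups shared the genotype ROSA-rtTA; Nanog-GFP, that is, a doxycycline-dependent transactivator from the mother (ROSA-rtTA homozygous, C57Bl6 backcross) and a Nanog-GFP BAC transgene from the father (C57Bl6/129SV). All cells received a PB-TAC piggyBac transposon, a DNA element that a transposase inserts into the genome, with the transposase plasmid pCyL43, and were moved after 24 hr into ES cell medium with doxycycline at 1 ug/mL. The first group held 8 polycistronic reprogramming cassettes (EB-C5, MKOS, OKMS, OK+9MS, OKN-HAMS, OSKM, STEMCCA and WTSI), and the second held the transposons Klf4S and Klf4L, which carried Klf4 alone. Both were sorted on day 6 for mCherry, the reporter expressed together with the transgene. The reference was 1 array of cells with a lacZ transposon, labelled day 2 and not labelled as sorted. A difference from lacZ is thus also one of day and of sort, and these cannot be told apart. There was 1 array per construct, and nothing in the labels names separate cultures or embryos.

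Chemokines are small secreted proteins that guide leukocytes through G protein-coupled receptors. CXC chemokines such as Cxcl1 and Cxcl5 attract mainly neutrophils, Cxcl12 retains and guides stem and progenitor cells through Cxcr4, and CC chemokines such as Ccl2, Ccl7 and Ccl5 attract monocytes and lymphocytes. Fibroblasts release several of these proteins when NF-kB or interferon signalling is active, while Lif and Il6 share the receptor subunit gp130 (Il6st) and Csf1 sustains macrophages.

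The stretches of RefSeq promoter shown here (mouse build GRCm38.p6) are those in which the NF-kB consensus motif was found within the 250 bases before the start site of a cytokine or chemokine gene, together with Nfkbia, the NF-kB inhibitor whose level is described with them. Each is written 5′ to 3′ on the gene's strand, and capitals mark the NF-kB motif and, in Il6 alone, also the C/EBP motif TTNNGNAA, which is the first of its 2 capital runs. Il6 is shown at chr5:30012979-30013088 (plus strand), Cxcl1 at chr5:90891150-90891209 (plus), Csf1 at chr3:107760585-107760644 (minus), Lif at chr11:4257368-4257427 (plus) and Nfkbia at chr12:55492648-55492707 (minus).
Il6: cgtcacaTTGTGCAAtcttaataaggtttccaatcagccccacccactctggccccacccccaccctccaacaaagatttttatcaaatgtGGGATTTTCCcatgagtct
Cxcl1: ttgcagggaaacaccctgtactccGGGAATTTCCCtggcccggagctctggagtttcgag
Csf1: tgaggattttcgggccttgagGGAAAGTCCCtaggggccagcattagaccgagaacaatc
Lif: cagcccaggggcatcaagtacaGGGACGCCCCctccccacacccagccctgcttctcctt
Nfkbia: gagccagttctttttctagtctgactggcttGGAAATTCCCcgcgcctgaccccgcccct

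Promoter windows were given for 6 of the 10 genes (Il6, Cxcl1, Cxcl12, Lif, Csf1 and Il33, the last with 2 windows), and Cxcl5, Ccl2, Ccl7 and Ccl5 are named only. The NF-kB motif, searched on both strands, was in 4 of these 6 genes and in 7.25% of 32851 promoter windows. The capital run in Cxcl1 covers a pair of overlapping matches on opposite strands. The AP-1 motif TGANTCA was in 2 of the 6 genes (Il6 and Lif; 6.75% of windows), the C/EBP motif in 2 (Il6 and Il33; 36.8%), the KLF core CACCC in 5, all but Csf1 (52.0%), and TATAAA in Il33 alone (12.4%). Some CACCC matches can be read in lower case in the stretches above. A match describes letters in this window and is not a measured site.

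Il6, a cytokine of acute inflammation, was highest on the lacZ array. Its level, like all levels here a log2 expression value, was 7.71 with lacZ, 5.71 with Klf4S and 6.15 with Klf4L. In the 8 cassettes it ran from 5.18 in OSKM to 6.64 in WTSI, with a median of 5.61. The lacZ level was above all others, and the Klf4 values lay inside the cassette range. The dim level, set per array at the 90th percentile of 1190 olfactory and vomeronasal receptor genes that fibroblasts are not known to use, was 5.92 to 6.02. Il6 exceeded it on 3 of 11 arrays (lacZ, Klf4L and WTSI). On the other 8 arrays its difference from lacZ has only a lower bound in size, and group means of Il6 mix both kinds of value. The other 9 genes exceeded it on all 11 arrays.

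Lif, which holds mouse embryonic stem cells in self-renewal, stood at 8.79 with lacZ, 8.05 with Klf4S and 8.07 with Klf4L. Cassette levels ran from 7.53 in EB-C5 through a median of 8.04 to 8.20 in OKMS. All 10 day-6 values were below lacZ, and the Klf4 values lay in the middle of the cassettes. Csf1, the macrophage growth factor, had 11.22 with lacZ, 10.39 with Klf4S and 10.58 with Klf4L. Its cassette values spread over 1.55 log2 units, from 8.96 in OKN-HAMS through a median of 9.70 to 10.51 in STEMCCA. All day-6 arrays were below lacZ, and STEMCCA was the only cassette above a Klf4 array. Il33, a nuclear cytokine released from damaged cells, had 8.04 with lacZ and 8.37 and 8.32 with Klf4S and Klf4L. In the cassettes it ran from 7.29 in WTSI through 7.96 to 8.10 in OK+9MS. The cassettes lay on both sides of lacZ and all below both Klf4 arrays.

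Among the CXC chemokines, Cxcl1 varied least, within 0.74 log2 units over all 11 arrays. It was 8.12 with lacZ, 7.80 with Klf4S and 8.07 with Klf4L, and ran from 7.45 in OKMS through a median of 7.70 to 8.19 in WTSI, which was above lacZ. Cxcl5 had 9.53 with lacZ, 8.94 with Klf4S and 8.95 with Klf4L. Its cassette values went from 7.48 in OKN-HAMS through 7.78 to 8.97 in STEMCCA. STEMCCA therefore sat with the Klf4 arrays, and the other 7 cassettes were below both. Cxcl12 was 9.55 with lacZ, 9.80 with Klf4S and 9.89 with Klf4L, and ran in the cassettes from 8.39 in OKN-HAMS through 9.07 to 10.18 in STEMCCA. STEMCCA was the highest of all arrays for Cxcl12, and the other 7 cassettes were below lacZ.

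The CC chemokines Ccl2 and Ccl7, monocyte attractants with neighbouring genes, were highest with lacZ. Ccl2 was 12.23 with lacZ, 11.05 with Klf4S and 11.23 with Klf4L, and in the cassettes ran from 10.29 in OSKM through 10.63 to 11.00 in WTSI. The 3 groups of Ccl2 values did not overlap. Ccl7 was 12.30 with lacZ, 11.86 with Klf4S and 11.97 with Klf4L, against 11.30 in OSKM through 11.68 to 11.89 in WTSI. Only WTSI of the cassettes reached the level of a Klf4 array. Ccl5, an attractant of T cells and monocytes, was 12.87 with lacZ, 12.53 with Klf4S and 12.47 with Klf4L. Its cassette levels ran from 11.08 in EB-C5 through 11.81 to 12.57 in STEMCCA, and STEMCCA was the only cassette above a Klf4 array.

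**Figure D1:**
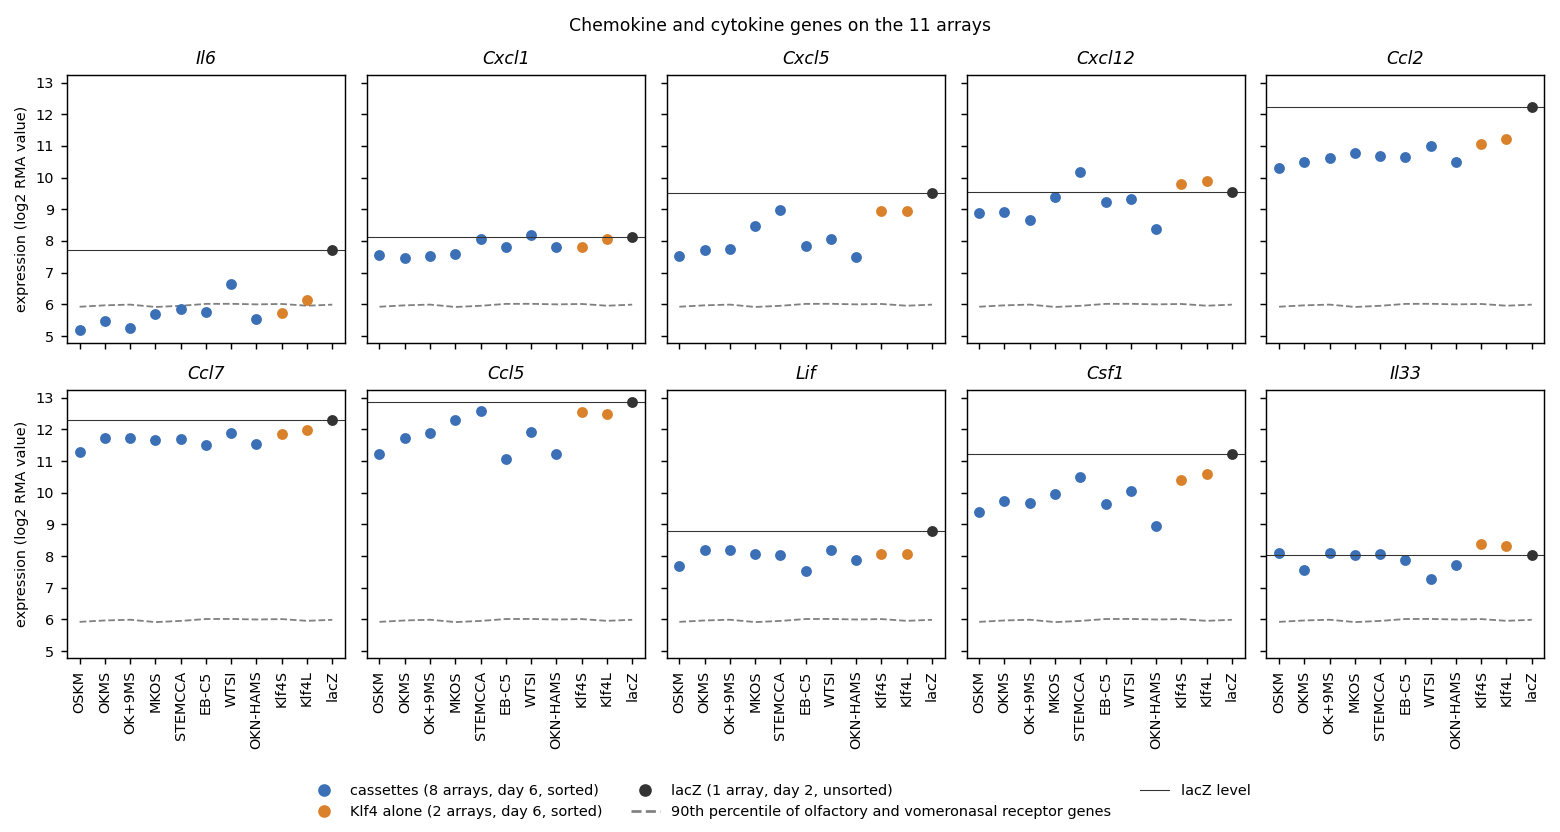
Level of each of the 10 genes on the 11 arrays (y axis, log2 RMA value; x axis, construct), with 1 point per array, the lacZ level as a thin line and the dim level as a dashed line. Il6 is above the dashed line with lacZ (7.71), WTSI (6.64) and Klf4L (6.15) and below it elsewhere, while Ccl2 separates into cassettes (10.29 to 11.00), Klf4 alone (11.05 and 11.23) and lacZ (12.23).

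The mean over the groups had the order lacZ, Klf4 alone, cassettes from high to low in 8 genes; in Cxcl12 and Il33 the Klf4 mean was above lacZ. Which neighbours in this order differ beyond the spread between constructs was asked with limma in a single model of all 11 arrays, with Benjamini-Hochberg adjustment over the 19938 genes and calls at an adjusted p under 0.05. The lacZ array has no spread of its own, so its error is that of the other constructs. The 2 comparisons with lacZ share that array, and their values are set side by side without being counted as separate evidence.

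Compared with lacZ, the cassettes had lower Ccl2 and lower Il6. Ccl2 was lower by 3.05-fold, with a mean of 10.62 ± 0.21 (SD, n = 8) against 12.23 and a difference of -1.61 ± 0.20 (SE; limma adjusted p = 0.00571). Il6 had a mean of 5.67 ± 0.46 (SD, n = 8), a difference of -2.03 ± 0.43 and a limma adjusted p of 0.0476, a ratio of 4.09. Members called lower were thus 2 of 10, where 1.59% of all genes were called lower, and 0 were called higher, where 0.456% of all genes were. Before adjustment the limma p was under 0.05 for 7 of the 10, all lower, and for 2049 of the 19938 genes in that direction. All 10 differences were negative, with a median of -0.97 where the median of all genes was -0.01. Every cassette was below lacZ in 7 of the 10 genes, a pattern met by 20.8% of all genes.

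Csf1 (-1.48 ± 0.42, limma adjusted p = 0.123), Cxcl5 (-1.55 ± 0.46, 0.139) and Ccl5 (-1.13 ± 0.49, 0.310) had differences of more than 1 log2 unit that did not pass the test. Lif differed by -0.82 ± 0.23 (limma adjusted p = 0.121) and Ccl7 by -0.67 ± 0.17 (0.0889). For Cxcl12 (-0.43 ± 0.50), Cxcl1 (-0.37 ± 0.26) and Il33 (-0.20 ± 0.27) the limma adjusted p was 0.574 to 0.860. The Ccl2 call held in all 16 alternative settings, with an adjusted p of 0.00277 to 0.0143. The Il6 call is close to its threshold: it was lost without OSKM (limma adjusted p = 0.0652), OKMS (0.0736), OK+9MS (0.06996), MKOS (0.0668), EB-C5 (0.0652), OKN-HAMS (0.0719) or either Klf4 array (0.0788), while the difference stayed between -2.17 and -1.96. Without STEMCCA, Cxcl5 (-1.70, limma adjusted p = 0.0233) and Csf1 (-1.59, 0.0395) also passed, and both stayed uncalled in the other 15 alternatives.

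With Klf4 alone, 8 of the 10 differences from lacZ were negative and none passed the test. The background was 0.476% of all genes called lower and 0.271% called higher. An unadjusted limma p under 0.05 was found in 3 of the 10, all lower, and in 1261 of the 19938 genes in that direction. Il6 differed by -1.78 ± 0.49 (limma adjusted p = 0.164), Ccl2 by -1.10 ± 0.23 (0.0773) and Lif by -0.73 ± 0.27 (0.308). Both Il6 and Ccl2 passed without the WTSI array, each at a limma adjusted p of 0.0455. They stayed uncalled in all other alternatives, 14 for Il6 and 15 for Ccl2. Csf1 (-0.74 ± 0.49), Cxcl5 (-0.58 ± 0.54), Ccl7 (-0.39 ± 0.20), Ccl5 (-0.36 ± 0.57) and Cxcl1 (-0.19 ± 0.30) had a limma adjusted p of 0.518 to 0.932, and Cxcl12 (0.29 ± 0.58) and Il33 (0.31 ± 0.32) had positive differences. Both Klf4 arrays were below lacZ in 8 of the 10 genes, a pattern met by 40.6% of all genes. The median of the 10 differences was -0.48.

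Taking all 10 day-6 arrays, 7 of the 10 genes were below lacZ on every array, where 14.5% of all genes were; the exceptions were Cxcl1, Cxcl12 and Il33. Il6 and Ccl2 were at least 2-fold below lacZ on every day-6 array, and 0.301% of all genes (60) had that pattern. Per array, the median of the 10 differences from lacZ was -1.42 in EB-C5, -1.40 in OKN-HAMS, -1.38 in OSKM, -0.93 in OK+9MS, -0.90 in OKMS, -0.85 in WTSI, -0.69 in MKOS, -0.58 in STEMCCA, -0.51 in Klf4S and -0.49 in Klf4L. EB-C5, OKN-HAMS and OSKM were thus lowest and STEMCCA nearest to Klf4 alone, while the median over all genes stayed between -0.04 and 0.01.

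**Figure D2:**
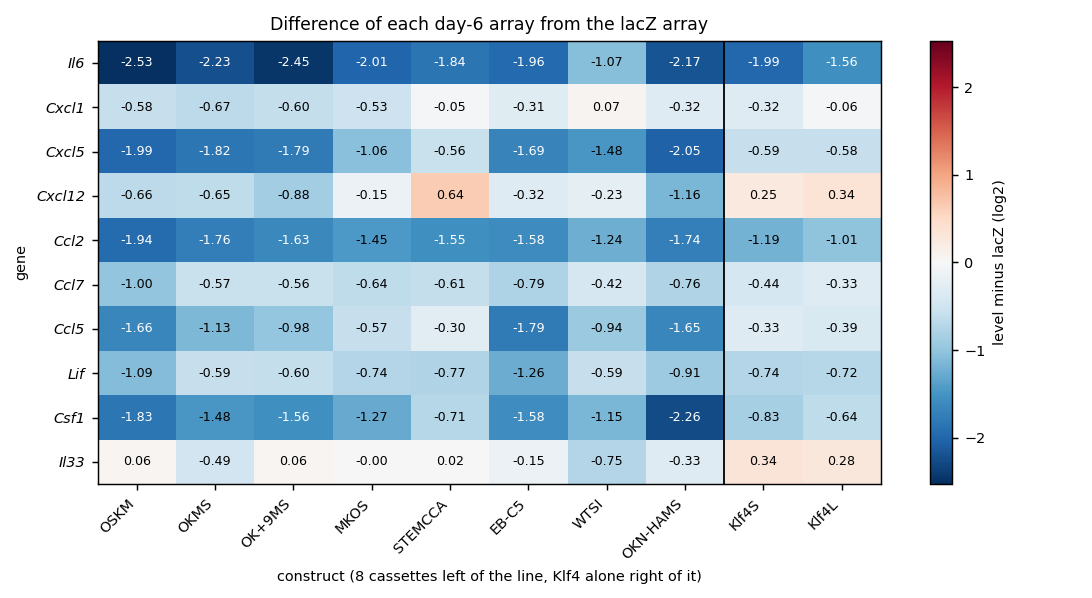
Level of each gene on each day-6 array minus its level on the lacZ array (log2; colour and printed value), with the 8 cassettes left of the black line and Klf4 alone right of it. The Il6 and Ccl2 rows are at -1.01 or lower on every array, and Cxcl12 is positive in STEMCCA (0.64), Klf4S (0.25) and Klf4L (0.34).

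The comparison of the cassettes with Klf4 alone is free of the difference in day and sort. All 10 genes had a lower mean in the cassettes, with a median difference of -0.51. None passed the test, where 8.12% of all genes were called lower and 6.35% higher. An unadjusted limma p under 0.05 was reached by 4 of the 10, all lower, and by 3703 of the 19938 genes in that direction. Ccl2 was nearest to the threshold, at -0.51 ± 0.15 (limma adjusted p = 0.0501). Exact two-sided permutation tests over the 45 splits of the 10 arrays were run on each of the 10 genes, without adjustment. Ccl2 had 0.0222, the smallest p that this design allows, and the other 9 genes had 0.0667 to 0.689. Cxcl5 differed by -0.97 ± 0.35 (limma adjusted p = 0.0882), Ccl5 by -0.77 ± 0.37 (0.194), Csf1 by -0.74 ± 0.31 (0.143), Cxcl12 by -0.72 ± 0.37 (0.228), Il33 by -0.51 ± 0.20 (0.125) and Ccl7 by -0.28 ± 0.13 (0.170). For Il6 (-0.26 ± 0.32), Cxcl1 (-0.18 ± 0.19) and Lif (-0.09 ± 0.17) the limma adjusted p was 0.599 to 0.807.

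Every cassette lay below both Klf4 arrays in 2 of the 10 genes, Ccl2 by a gap of 0.05 and Il33 by a gap of 0.22, a pattern met by 17.8% of all genes. Leaving out STEMCCA changed several of the other results: without it Cxcl5 (-1.11, limma adjusted p = 0.0134), Cxcl12 (-0.87, 0.0404) and Csf1 (-0.85, 0.0450) passed the test. Each of these genes stayed uncalled in the other 16 alternatives. The Ccl2 call changed with MKOS and WTSI in the same way (limma adjusted p = 0.0452 and 0.0263 without them). Counting the permutation test, Ccl2 stayed uncalled in 11 of 17 alternatives.

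**Figure D3:**
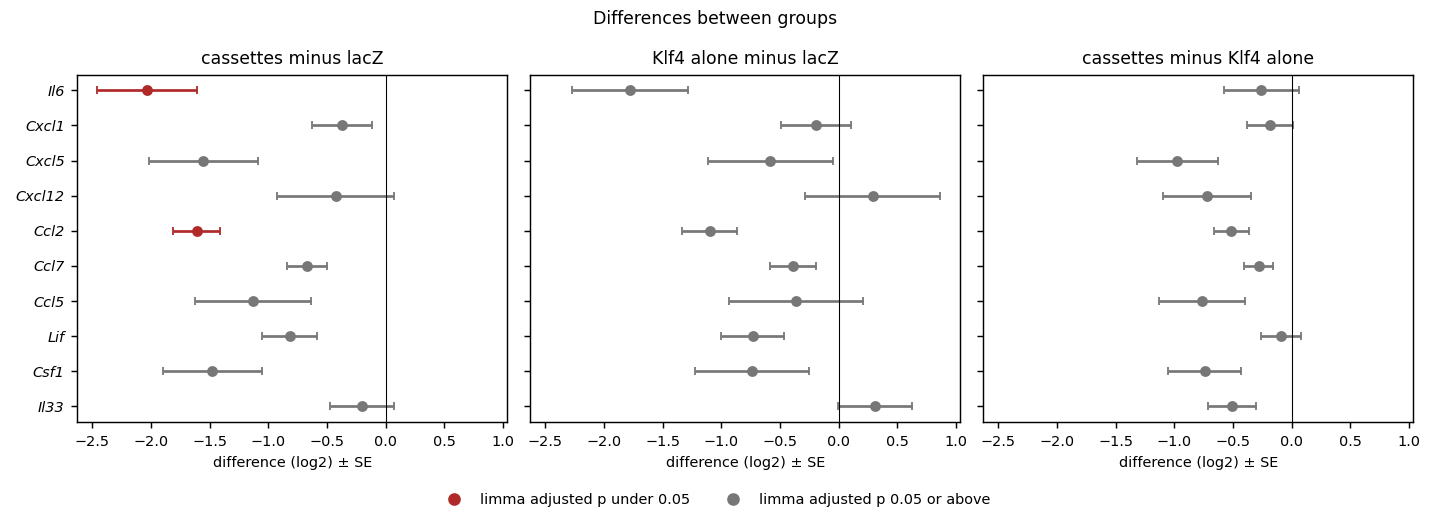
Difference between group means for each gene in the 3 comparisons (x axis, log2; points, fitted difference; bars, SE of the fit), with red points where the limma adjusted p was under 0.05. The red points are Il6 (-2.03) and Ccl2 (-1.61) in cassettes minus lacZ, and all points of cassettes minus Klf4 alone lie left of 0.

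Within the cassettes the genes did not share 1 order. STEMCCA was the highest cassette in Cxcl5, Cxcl12, Ccl5 and Csf1, and WTSI was the highest in Il6, Cxcl1, Ccl2 and Ccl7 and the lowest in Il33. OKN-HAMS was the lowest in Cxcl5, Cxcl12 and Csf1, OSKM in Il6, Ccl2 and Ccl7, and EB-C5 in Ccl5 and Lif. Each cassette is 1 array, so these orders have no replicate error and no test.

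The labels pair OK+9MS with OKMS and Klf4L (titled Klf4+9) with Klf4S. Of the 10 genes, 0 differed by 2-fold or more in either pair, where 3.18% of all genes did in OK+9MS against OKMS and 0% (0 genes) in Klf4L against Klf4S. The SD of the difference over all genes was 0.42 in the first pair and 0.13 in the second. Il33 was higher by 0.55 in OK+9MS, and by size 10.7% of all genes differed as much or more. Il6 was higher by 0.44 in Klf4L, where 0.481% of all genes differed as much or more, although its level there moved across the dim level. The remaining differences were between -0.24 and 0.27. A single array per construct gives no error for them.

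Cxcl5 and Cxcl1 belong to a run of CXC genes that RefSeq lists in the order Cxcl5, Ppbp, Pf4, Cxcl3, Cxcl15, Cxcl1, Cxcl2, and Ccl2 and Ccl7 begin a run followed by Ccl11, Ccl12, Ccl8 and Ccl1. Ppbp, the platelet basic protein gene next to Cxcl5, was chosen for mention after its values were seen: it was 11.07 with lacZ and 7.85 to 9.87 on day 6, below lacZ on 10 of 10 arrays (cassettes -2.32 ± 0.64, limma adjusted p = 0.115; Klf4 alone -1.24 ± 0.74, 0.609). Cxcl15, also in this run and named on the same basis, went the other way, with 5.21 on the lacZ array, under its dim level, and 6.14 to 9.34 on day 6 (cassettes 2.38 ± 0.91, limma adjusted p = 0.248; Klf4 alone 4.11 ± 1.05, 0.130). Neither passed the test. Pf4, Cxcl2 and Ccl12 stayed between 5.29 and 5.84 on every array, at or below the dim level. Ccl11, an eosinophil attractant beside Ccl7, was 8.50 with lacZ and 7.20 to 8.37 on day 6 (cassettes -0.78 ± 0.31, limma adjusted p = 0.256).

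**Figure D4:**
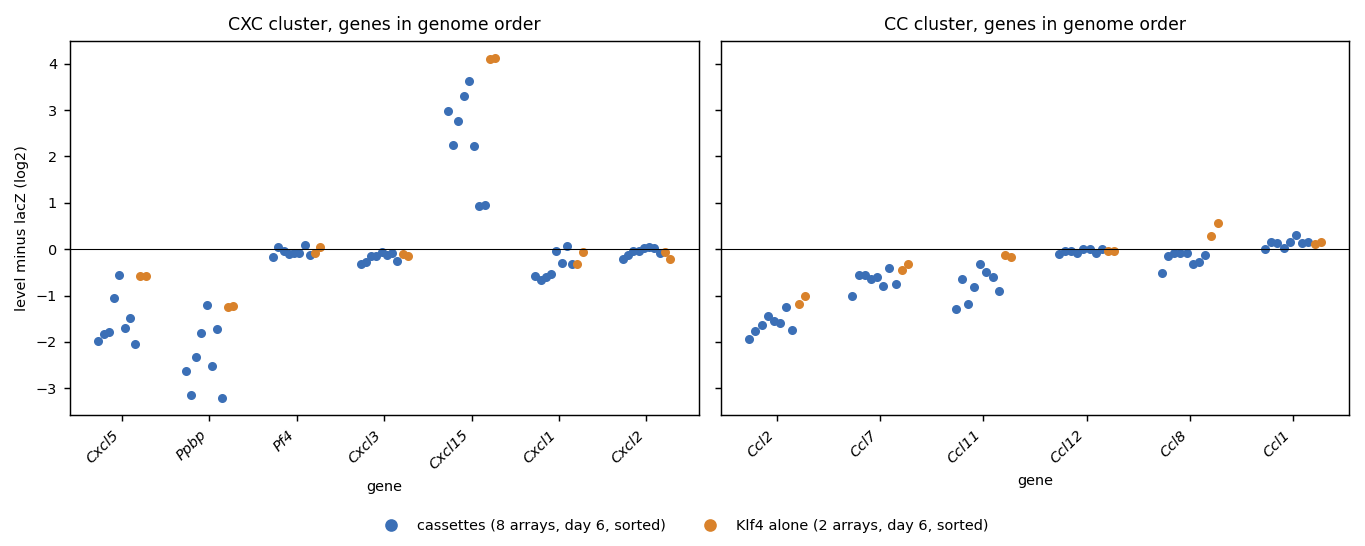
Level minus lacZ (y axis, log2) on each of the 10 day-6 arrays, for genes of the CXC run (left) and the CC run (right) in RefSeq order along the x axis; each point is 1 array. Cxcl5, Ppbp, Ccl2, Ccl7 and Ccl11 lie below 0 on all arrays, Cxcl15 above 0 on all arrays (0.92 to 4.13), and Pf4, Cxcl2 and Ccl12 near 0. Cxcl3 also lies below 0 on all arrays, by -0.31 to -0.07.

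Of the 15 other CC chemokines, 2 were lower in the cassettes than with lacZ: Ccl9 (-0.95 ± 0.13, limma adjusted p = 0.00919) and Ccl17 (-0.51 ± 0.10, 0.0400), with a median of -0.07 over the list. Over all genes, 1.59% were called lower in this comparison. Ccl17 kept its call in 7 of 15 alternatives and lost it among others without OSKM, OK+9MS, MKOS, EB-C5, OKN-HAMS or either Klf4 array (adjusted p up to 0.0764). Of the 12 other CXC and CX3C chemokines limma called 0, with a median of -0.06. At an unadjusted limma p under 0.05, 2 of the list were lower and 1 higher, against 2049 and 1038 of all 19938 genes. The interferon-inducible Cxcl10 of that list was 13.35 with lacZ and 10.16 to 12.13 on day 6 (cassettes -2.18 ± 0.56, limma adjusted p = 0.0907). Of 18 measured stromal cytokines, Il7 was called lower (-0.78 ± 0.15, 0.0348), from 6.48 to a cassette mean of 5.70, under the dim level; the call was lost without OSKM, OKMS, OK+9MS or OKN-HAMS (adjusted p up to 0.0616). Against Klf4 alone the cassettes had lower Ccl6 (-0.54, limma adjusted p = 0.00181), Ccl8 (-0.63, 0.0127) and Ccl9 (-0.41, 0.0282), and among stromal cytokines lower Il18 (-2.53 ± 0.34, 0.00386), Il7 (-0.47, 0.0247) and Il11 (-0.42, 0.0387). These are 3 of the 15 CC chemokines and 3 of the 18 stromal cytokines, with 0 of the 12 CXC and CX3C chemokines. Over all genes, 8.12% were called lower there. In the cassettes Ccl6 was 5.64 to 5.79, below the dim level, and Ccl8 was 5.83 to 6.26, near it. Il18, a cytokine of the Il1 family, was 9.09 and 9.02 in the Klf4 arrays, 5.72 to 7.22 in the cassettes and 6.38 with lacZ. Of these 6 calls, 5 were lost without either Klf4 array (adjusted p up to 0.253), Il11 also without OSKM, OKMS, EB-C5, WTSI or OKN-HAMS. Ccl6 was lost without Klf4L (0.0537).

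NF-kB drives transcription of many of the 10 genes, and Nfkbia (IkB alpha), Tnfaip3 (A20) and Nfkbiz are feedback regulators that NF-kB itself induces. Of 13 measured NF-kB pathway genes, these 3 were lower in the cassettes than with lacZ and 0 were higher, with a list median of -0.43, where 1.59% of all genes were called lower and 0.456% higher. Nfkbia was 10.54 with lacZ, 9.57 in both Klf4 arrays and 8.98 to 9.69 in the cassettes (-1.16 ± 0.20, limma adjusted p = 0.0222). Tnfaip3 was 8.69 with lacZ, 7.78 and 7.62 with Klf4S and Klf4L and 7.03 to 7.56 in the cassettes (-1.33 ± 0.18, 0.00688). Both kept their call in every alternative run. Nfkbiz (-0.95 ± 0.20, limma adjusted p = 0.0444) kept it in 7 of 16, with an adjusted p of up to 0.0820, and lost it among others without OSKM, OK+9MS, MKOS, EB-C5, OKN-HAMS or either Klf4 array. With Klf4 alone limma called 0 of the 13 against lacZ, and the median was -0.17. At an unadjusted limma p under 0.05, 3 were lower and 1 higher, against 1261 and 1028 of all 19938 genes.

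Among 17 measured inducers and regulators of cytokine transcription, Irf1 alone was called against lacZ in the cassettes (-1.23 ± 0.26, limma adjusted p = 0.0476), with a list median of -0.61; it kept the call in 5 of 16 alternatives and lost it without any 1 of the other constructs except STEMCCA, with an adjusted p of up to 0.0832. Of 12 measured interferon-response genes, the antiviral genes Oasl1 (-2.16 ± 0.19, limma adjusted p = 0.000930) and Cmpk2 (-2.08 ± 0.26, 0.00507) were lower in the cassettes, and both were also lower with Klf4 alone (-1.78, 0.00887, and -1.70, 0.0379). The last 2 calls were lost without either Klf4 array (adjusted p up to 0.197), and that of Cmpk2 also without OSKM, OKMS, OK+9MS or EB-C5. All 12 had negative differences in both comparisons with lacZ, with medians of -1.42 and -0.37. Over all genes, 1.59% were called lower in the cassettes and 0.476% with Klf4 alone.

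Against Klf4 alone, the cassettes had lower Tlr4, the endotoxin receptor (-1.57 ± 0.29, limma adjusted p = 0.0112), Tnfrsf1a, the main TNF receptor (-1.01 ± 0.22, 0.0204), and Cebpb (-0.74 ± 0.16, 0.0179). In the NF-kB list Nfkbiz (-0.80, 0.0112), Ikbke (-0.78, 0.0455), Ikbkg (-0.68, 0.0424) and Bcl3 (-0.67, 0.0435) were lower, 4 of 13, and 0 were higher, where 8.12% of all genes were called lower and 6.35% higher. Each of these 7 calls was lost without either Klf4 array, with an adjusted p of up to 0.261, and those of Ikbke, Ikbkg and Bcl3 also without 1 or another of several cassettes (9 or 10 of 16 alternatives kept them).

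Receptors of the 10 genes ranged from below the dim level to well above it. Cxcr2 (4.81 to 5.22 over the 11 arrays), Ccr1 (4.82 to 5.02), Ccr2 (4.80 to 5.01) and Ccr3 (5.26 to 5.52), leukocyte receptors of these chemokines, were below the dim level on every array. Csf1r (5.95 to 6.11), the receptor of Csf1, was near it. Il6st ran from 10.96 to 12.37, Lifr from 7.45 to 8.70, Il6ra from 7.58 to 9.17 and Cxcr4, the Cxcl12 receptor, from 6.31 to 7.03, with none called in any comparison. Ackr1, a decoy receptor that binds Ccl2, Ccl7, Ccl5, Cxcl1 and Cxcl5 without signalling through G proteins, was 9.22 with Klf4S and 9.20 with Klf4L, against 6.61 with lacZ and 6.16 to 6.96 in the cassettes. The Klf4 arrays stood apart from all others, with Klf4 alone higher than lacZ by 2.60 ± 0.28 (limma adjusted p = 0.00586) and the cassettes lower than Klf4 alone by a difference of -2.68 ± 0.18 (0.000150). The first of these calls was lost with only the 3 arrays compared (0.0528), and the second held in all 15 alternatives. Ackr3, the scavenging receptor of Cxcl12, was 8.69 and 8.86 with Klf4S and Klf4L, 6.92 to 8.38 in the cassettes and 8.09 with lacZ (cassettes against Klf4 alone -1.07 ± 0.30, limma adjusted p = 0.0417), a call kept in 9 of 16 alternatives and lost without OSKM, OK+9MS, EB-C5, WTSI, OKN-HAMS or either Klf4 array (up to 0.246). Among the 15 receptors measured, no others were called in any comparison.

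**Figure D5:**
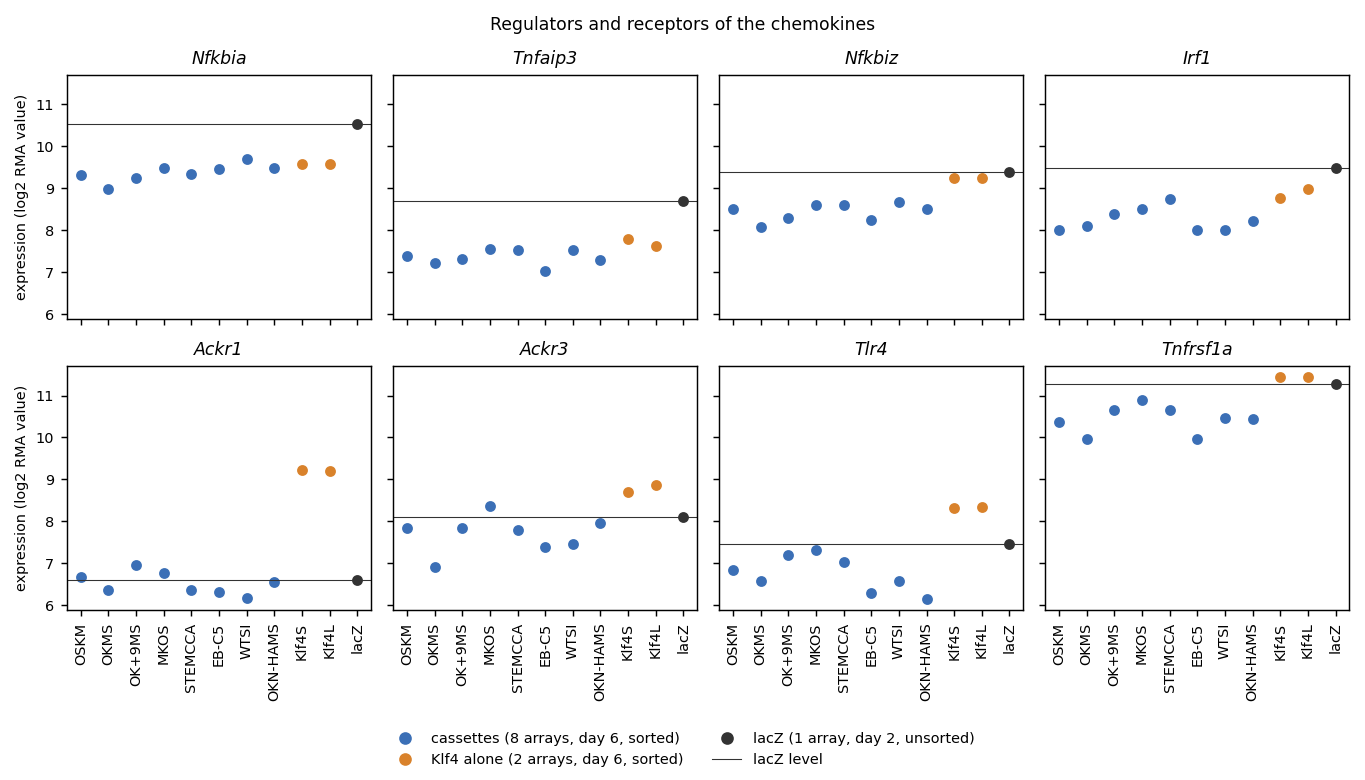
Level (y axis, log2 RMA value) of 8 regulators and receptors on the 11 arrays (x axis, construct), 1 point per array, with the lacZ level as a line. Nfkbia and Tnfaip3 are below the lacZ line on all day-6 arrays, and Ackr1 is at 9.22 and 9.20 with Klf4S and Klf4L against 6.16 to 6.96 in all other arrays.

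Some marker genes of several cell types differed between the groups. In bulk RNA, fewer cells of a type and less RNA per cell cannot be told apart. The 10 fibroblast markers were above the dim level on all 11 arrays. Their mean level was 10.78 with lacZ, 10.76 to 11.71 in the cassettes and 12.03 to 12.04 with Klf4 alone, and the markers went both ways, with cassette differences from lacZ of 2.18 in Lum and 1.96 in Dcn but -0.88 in Thy1 and -0.53 in Pdgfra, none of them called. The mean level of the 10 cytokine and chemokine genes was 10.04 with lacZ, 8.70 to 9.46 in the cassettes and 9.45 to 9.57 with Klf4 alone. Summed on the linear scale the fibroblast markers were 37878 with lacZ, 30841 to 50088 in the cassettes and 59596 to 60480 with Klf4 alone, and OKMS, EB-C5, WTSI and OKN-HAMS were below lacZ in this sum. Against Klf4 alone, the cassettes had lower Col1a2 (-0.99 ± 0.29, limma adjusted p = 0.0489) and Col3a1 (-1.19 ± 0.34, 0.0462), calls that 8 of 16 alternatives kept. These are 2 of the 10 markers, where 8.12% of all genes were called lower. All 10 markers had a lower mean in the cassettes than with Klf4 alone, with a median difference of -0.94. The median of the 10 cytokine and chemokine genes there was -0.51. Whether the 2 shifts are linked was not tested.

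The 8 epithelial markers had a mean level of 7.19 with lacZ, 8.76 and 8.94 with Klf4S and Klf4L, and 7.32 (WTSI) to 10.77 (OSKM) in the cassettes, with a linear sum of 1879, 8057 to 9011, and 1630 to 26732. Epcam was higher in the cassettes than with Klf4 alone (3.12 ± 0.89, limma adjusted p = 0.0460), a call kept in 9 of 16 alternatives. OSKM and OK+9MS, each with an epithelial mean of 10.77, had Ccl7 at 11.30 and 11.74 and Ccl2 at 10.29 and 10.61. On the same arrays Cxcl1 was 7.55 and 7.52 and Il33 8.09 and 8.10. WTSI (7.32) and EB-C5 (7.38) had Ccl7 at 11.89 and 11.52 and Ccl2 at 11.00 and 10.65. OKMS (8.42) and OK+9MS, with unlike epithelial means, both had Ccl7 at 11.74. Il6 was 5.18 in OSKM, 5.25 in OK+9MS, 5.53 in OKN-HAMS (10.61) and 5.70 in MKOS (10.18). It was 5.48 in OKMS, 5.86 in STEMCCA (7.72), 5.75 in EB-C5 and 6.64 in WTSI, and only WTSI exceeded the dim level. OKN-HAMS was the lowest cassette in Cxcl5 (7.48) and Cxcl12 (8.39), while MKOS had 8.47 and 9.40. These are single arrays, and the part of the epithelial markers in the chemokine differences was not tested. Of the 10 macrophage and leukocyte markers, 5 to 8 were above the dim level on an array, and the linear sum was 970 with lacZ, 1068 to 1076 with Klf4 alone and 1106 to 3313 in the cassettes. The markers Ptprc (5.59 to 5.79) and Adgre1 (5.37 to 5.45) were below the dim level on all 11 arrays. Cd68 (8.11 to 9.62), Cd14 (6.47 to 6.95), Fcgr3 (6.42 to 6.70) and Tyrobp (6.20 to 6.56) were above it on all 11. Lyz2 (5.56 to 6.07), Itgam (5.87 to 6.52) and Csf1r (5.95 to 6.11) lay on both sides of it. Laptm5 ran from 6.85 with lacZ to 10.92 in OKN-HAMS. The 8 endothelial markers had a mean level of 6.61 with lacZ, 6.68 to 6.89 in the cassettes and 6.85 to 6.86 with Klf4 alone, and a linear sum of 798, 1109 to 1620, and 1075 to 1147. In the cassettes Tek was higher than with lacZ (3.33 ± 0.29, limma adjusted p = 0.000930) and Kdr lower (-0.52 ± 0.09, 0.0212). The other 6 were not called there: Tie1 (0.10), Pecam1 (0.05), Vwf (0.003), Cdh5 (-0.05), Esam (-0.39) and Emcn (-1.23). Esam was higher with Klf4 alone than with lacZ (1.46 ± 0.21, limma adjusted p = 0.0166; lost without Klf4L, adjusted p up to 0.114) and lower in the cassettes than with Klf4 alone (-1.85 ± 0.14, 0.000197).

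The genes whose pattern over the 11 arrays was most like that of the 3 genes with a span of at least 2 log2 units (Il6 2.53, Csf1 2.26 and Cxcl5 2.05) were found by Pearson's r, as a description. All values share the same arrays and the single lacZ library. For Il6 they were Ccdc85a (r = 0.967), Mob3a (0.955) and Ilk (0.952). For Cxcl5 they were Ifih1, a sensor of viral RNA (0.982), Zbtb20 (0.982) and Erap1 (0.979). For Csf1 they were Ccdc102a (0.978), the growth factor Fgf7 (0.977) and Nexn (0.977). Fgf7 was 11.34 with lacZ, a mean of 10.35 with Klf4 alone and 8.18 to 10.12 in the cassettes.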

How the data were processed

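Total RNA of 11 samples was measured on Affymetrix mouse gene arrays, 1 array per construct. The authors deposited log2 values from RMA, per the submitters' processing notes; the sources used here give no version. RMA adjusts the arrays to a shared distribution and can understate large differences. Array medians were 7.188 to 7.269, and the values were used as deposited. The number of arrays limits the precision.

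Of 28856 probe sets, 21789 had 1 gene symbol in the platform annotation, 1621 several and 5446 none; only the first were used. A total of 21698 matched a current Entrez entry, and 0 of these had another current symbol. For 999 genes the probe set with the highest mean was kept, leaving 19938 genes with no filter on dim ones. Differences were fitted with limma 3.58.1 in R 4.3.3 (lmFit and eBayes, 8 residual degrees of freedom). The lacZ array adds no spread, and p-values measure the spread between different constructs, which may be partly technical. The method was tested on simulated data. Each of the 10 genes was also tested by itself by exact permutation over the 10 day-6 arrays.

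Members and gene lists were chosen with earlier results of these data known. All 10 genes are named in each comparison, with up to 4 called genes per list, receptors of the 10 genes, and the 3 most similar genes for each gene spanning at least 2 log2 units. The dim level was chosen after the data were seen. Promoters came from RefSeq (GRCm38.p6), and the sources used here give no build for the array. Protein sequences were not used here, and some genes of the lists are not reported here. Alternatives were other sets of arrays, scaling, variance prior, filter and probe set rule.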

Additional observations from a re-analysis of the deposited data

Results flagged for a closer look

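The Il6 level of the WTSI array, 6.64, stood apart from the other 7 cassettes (5.18 to 5.86): the gap to the nearest array was 0.531 of the range, just past the limit of Dixon's test for 8 samples. Chance gives such a gap in about 1 in 20 groups, and 10 genes were examined. WTSI was also the highest cassette in Cxcl1, Ccl2 and Ccl7.

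In 6 genes the differences OK+9MS minus OKMS and Klf4L minus Klf4S had opposite signs. They were -0.224 and 0.440 in Il6, -0.236 and 0.0941 in Cxcl12, 0.150 and -0.0620 in Ccl5, -0.0162 and 0.0148 in Lif, -0.0812 and 0.187 in Csf1, and 0.548 and -0.0542 in Il33 (log2). Each is a difference between single arrays, and whether the pairs differ was not tested. The share of all genes with opposite signs is not given here, so these 6 genes have no background to be read against. Il6 was below the dim level in OKMS (5.48, dim level 5.97), OK+9MS (5.25, dim level 5.99) and Klf4S (5.71, dim level 6.01).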

How the results depend on the processing

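None of the 10 genes changed the sign of its difference under any alternative in the comparisons with lacZ or with Klf4 alone. The number of genes called in cassettes minus lacZ, 409, was 184 with only the arrays of both groups, 186 with genes above the median level (41.4% of calls higher, against 22.2%), and 184 to 734 when 1 array was left out. Leaving out STEMCCA gave 734 calls, OSKM 272, OK+9MS 241 and either Klf4 array 184. In Klf4 alone minus lacZ the 149 calls became 0 with only the 3 arrays compared (limma; 6485 genes had an unadjusted p under 0.05), 77 with genes above the median level, and 36 to 268 with 1 array left out (93 without OK+9MS, 268 without MKOS, 40 without Klf4S, 36 without Klf4L). In cassettes minus Klf4 alone the 2885 calls became 92 to 3968 with 1 array left out, with 104 without Klf4S and 92 without Klf4L. In the settings without 1 Klf4 array, the other is assumed to vary like the cassettes. The call of Ccl2 against Klf4 alone, absent in the reported fit, was made by limma in 5 of 16 alternatives. Il6 had no value with genes above the median level. Counts of 2-fold differences between the paired single arrays stayed at 625 to 634 and at 0. No paired analysis was possible because each construct was measured once and replicate numbers do not link the groups. Near the dim level, as for Il6, signal over background limits the size of a difference.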
